A study of Mus musculus with 6 samples.

Results

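The genes described here are 10 heat shock protein genes of the mouse, taken by symbol from a table of 36842 genes. They comprise 3 forms of the testis (Hspa1l, Hspa2 and Hspa4l), 6 forms that stress can induce (Hspa1a, Hspa1b, Hsph1, Hspb1, Hsp90aa1 and Dnajb1) and Hspa8, the constitutive cytosolic HSP70, as 1 further gene. All 10 symbols were found, and all 10 passed the filter used for testing, an average of 1 FPKM or more. RNA had been sequenced from 6 libraries labelled as wild-type GC-2spd(ts), an immortalised line derived from mouse spermatocytes, with testis given as the tissue. By the labels, the 3 CP libraries came from cells given 2 mM cyclophosphamide, an alkylating drug toxic to germ cells, for 24 h. The 3 Sal_CP libraries came from cells given the same dose together with 100 µM salidroside, a glycoside of Rhodiola plants, for 24 h. Every library was thus labelled as given cyclophosphamide, and cells without it are not analysed here. The contrast between Sal_CP and CP addresses how expression differed with salidroside among libraries labelled as also given cyclophosphamide. The series ties this question to the upregulation of GPX4. The labels do not say whether libraries within a group stem from separate cultures. The p-values therefore reflect only the scatter among these samples, which could be technical.

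Heat shock proteins are chaperones that hold, fold and release other proteins. HSP70 proteins bind short hydrophobic stretches under the control of ATP, J-domain proteins such as DNAJB1 deliver the clients, and HSP110 proteins such as HSPH1 and HSPA4L exchange the nucleotide. HSP90 acts later on signalling proteins, and small heat shock proteins such as HSPB1 keep unfolding proteins soluble without ATP. After heat or proteotoxic stress, the transcription factor HSF1 binds repeats of the unit GAA and its complement TTC in promoters and switches on the inducible genes. Male germ cells of the mouse carry forms of their own. HSPA2 appears in meiosis and is needed by male mice to complete it, HSPA1L belongs to spermatids, and HSPA4L is an HSP110 form whose loss lowers the fertility of male mice.

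The label names an immortalised line derived from spermatocytes, yet markers of spermatids, epididymis and leukocytes were present in every library. The spermatid gene Smcp ran from 13192 to 32993 FPKM over the libraries. The epididymal gene Crisp1 ran from 1423 to 3521 FPKM and the leukocyte gene Lyz2 from 89.8 to 562. The label does not account for these transcripts. Whether the libraries hold only the labelled cells was not tested, so differences here cannot be read as the response of that line alone. Summed over the spermatid list, of which 14 of 15 genes were in the table, levels lay between 47830 and 78580 FPKM in Sal_CP and between 33120 and 55000 in CP. The spermatocyte and meiosis list summed to 1634 to 2272 FPKM in Sal_CP and 1045 to 1673 in CP, led by Pgk2 and Syce2, with 8 of its 15 genes below the filter, among them Sycp1 (0.318 to 1.68 FPKM) and the meiotic recombinase Dmc1 (0.0345 to 0.299). Epithelial junction and keratin genes summed to 554 to 707 FPKM in Sal_CP and 632 to 839 in CP. Cldn3 alone gave 403 to 551 FPKM of this in Sal_CP and 244 to 486 in CP. The 12 epididymal markers in the table summed to 2306 to 3421 FPKM in Sal_CP against 5090 to 5752 in CP. Crisp1, Spink8 and Cd52 gave most of this sum. Of its 6 tested genes 4 had a log2 change below 0 (median -0.33), against 60.5% of all tested genes. Adam7, the next in level, went the other way (0.28, with overlap). Lcn9 of the latter list, Fshr of the Sertoli list and Hsd17b3 of the Leydig list were at 0 in every library. FPKM divide fragments by transcript length and library total, so levels may be compared between genes. Depth is unknown, since no read counts were used. Mitochondrially encoded genes took 29.0 to 38.1% of all FPKM in Sal_CP and 36.6 to 50.4% in CP.

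By mean FPKM over the 6 libraries the order of the members was Hspa1l, Hspa8, Hspa4l, Hsp90aa1, Hspa2, Dnajb1, Hspb1, Hspa1a, Hspa1b and Hsph1. Hspa1l averaged 77.6 FPKM, which placed it 442nd among all genes, and Hsph1 averaged 2.35 FPKM. Most neighbours in this order did not hold their places from library to library. Hspa1l exceeded Hspa8 in 4 of 6 libraries, Hsp90aa1 exceeded Hspa2 in 3 of 6 and Hspa1a exceeded Hspa1b in 3 of 6. Only the lowest step, Hspa1b over Hsph1, held in 6 of 6, with ratios of 3.38 to 6.55. Hspa1l and Hspa4l nevertheless stood above their inducible relatives in every library, whereas Hspa2 was below Hspa1a in CP replicate 1. The FPKM ratio of Hspa1l to Hspa1a ran from 3.10 to 13.96, and that of Hspa4l to Hsph1, both of the HSP110 family, from 12.04 to 48.13.

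**Figure D1:**
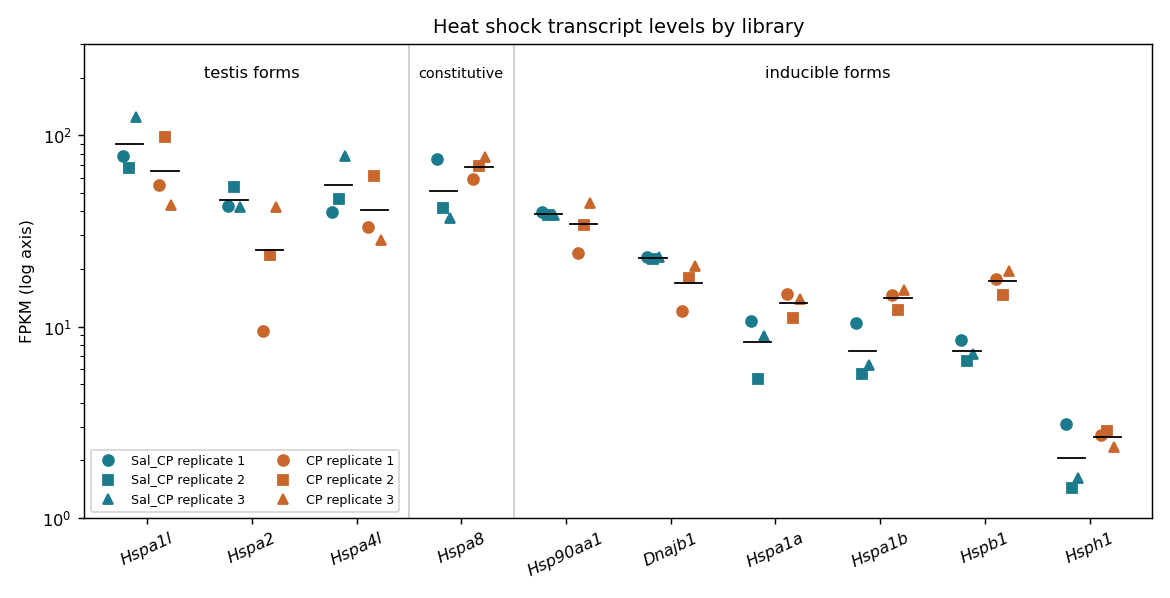
FPKM of the 10 heat shock genes on a log axis, with 1 point per library, colours for the groups, symbols for the replicate number and black lines for group means. Hspb1, Hspa1a and Hspa1b have every Sal_CP point below every CP point, Dnajb1 has the reverse, and for Hspa2 the lowest Sal_CP point (42.2) lies just above the highest CP point (42.1).

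Promoter sequences of 6 members are shown because they set the inducible genes, for which HSF1 sites are known, beside testis genes. RefSeq windows of GRCm38.p6, from 250 bases before to 50 bases after the start, were at hand for 8 of the 10 members, all but Hspa8 and Hsp90aa1. The 140 bases before the RefSeq start are printed 5′ to 3′ on the gene's strand. In the GENCODE M21 annotation some genes start further upstream. The printed stretch of Hspa2 lies wholly inside its GENCODE gene, which starts at 76404176, and that of Hsph1 lies partly inside. The whole window of Hspa4l, 40745363 to 40745662, also lies inside its gene, which starts at 40744495. Capitals of 8 letters mark a match to GAANNTTC or TTCNNGAA, a pair of facing HSF1 units, and capitals of 5 letters mark CCAAT on either strand (ATTGG on the other).
Hspa1a, chr17:34972157-34972296, minus strand: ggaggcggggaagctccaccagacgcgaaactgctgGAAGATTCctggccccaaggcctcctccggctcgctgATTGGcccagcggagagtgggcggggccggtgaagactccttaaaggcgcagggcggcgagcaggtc
Hspa1b, chr17:34959239-34959378, minus strand: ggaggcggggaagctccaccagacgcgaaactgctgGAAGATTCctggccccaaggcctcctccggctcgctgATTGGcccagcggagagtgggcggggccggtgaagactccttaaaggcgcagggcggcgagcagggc
Hspb1, chr5:135887779-135887918, plus strand: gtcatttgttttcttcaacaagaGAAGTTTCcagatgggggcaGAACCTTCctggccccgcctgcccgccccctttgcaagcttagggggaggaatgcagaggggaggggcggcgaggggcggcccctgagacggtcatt
Hsph1, chr5:149636337-149636476, minus strand: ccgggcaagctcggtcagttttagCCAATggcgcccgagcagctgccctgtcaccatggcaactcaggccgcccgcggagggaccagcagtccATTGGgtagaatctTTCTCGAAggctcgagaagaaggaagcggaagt
Hspa1l, chr17:34972563-34972702, plus strand: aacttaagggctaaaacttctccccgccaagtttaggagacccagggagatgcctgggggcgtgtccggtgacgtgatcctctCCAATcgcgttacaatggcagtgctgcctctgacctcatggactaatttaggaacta
Hspa2, chr12:76404230-76404369, plus strand: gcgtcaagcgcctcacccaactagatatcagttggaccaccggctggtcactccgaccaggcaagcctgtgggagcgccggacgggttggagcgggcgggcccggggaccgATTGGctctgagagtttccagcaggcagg

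Hspa1a and Hspa1b were identical at 139 of these 140 positions. Over the whole windows, GAANNTTC, which reads the same on both strands, was found in 4 of 8 members, Hspa1a, Hspa1b, Hspb1 and Hsph1, and in 9.04% of the 27025 genes with a window. TTCNNGAA, likewise the same on both strands, was found in Hsph1 alone of the members and in 9.6% of genes. A run of 3 alternating units, GAA and TTC each spaced by NN, was searched on both strands and contains both shorter motifs, and it occurred in Hsph1 and in 0.662% of genes. Windows of Hspa1l, Hspa2, Hspa4l and Dnajb1 held none of these. For Hspa2 little sequence before the GENCODE start was searched, and for Hspa4l none. CCAAT was found in 6 of 8 members and 41.1% of genes, and TATAAA and TGACGTCA in 0 of 8, against 15.7% and 2.03%. A match of letters is a description and not a bound site.

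Hspa1l, the spermatid HSP70, lay at 77.9, 67.5 and 124 FPKM in Sal_CP replicates 1 to 3 and at 55.2, 97.4 and 43.4 in CP replicates 1 to 3. Sal_CP replicate 3 and CP replicate 2 were the highest of their groups, and the groups overlapped. The means were 89.8 ± 30.2 (Sal_CP) and 65.4 ± 28.4 FPKM (CP), each with its SD over n = 3 libraries. The log2 change, Sal_CP minus CP on the log2(FPKM + 1) scale, was 0.49 (SE 0.39, 95% interval -0.36 to 1.33), with an adjusted p of 0.56 in limma.

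Hspa4l, the HSP110 form of male germ cells, lay at 39.7, 46.4 and 78.2 FPKM with salidroside and at 33.03, 60.9 and 28.4 without it. The same libraries stood out as for Hspa1l, replicate 3 of Sal_CP and replicate 2 of CP, again with overlap. Within each library the ratio of Hspa1l to Hspa4l stayed between 1.46 and 1.96, although each gene varied 2.86-fold and 2.75-fold over the libraries. The log2 change of Hspa4l was 0.43 (SE 0.38, 95% interval -0.41 to 1.27, limma adjusted p 0.582). Without Sal_CP replicate 3 it was 0.15 and without CP replicate 2 it was 0.76, and the corresponding values of Hspa1l were 0.23 and 0.81.

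Hspa2, the meiotic HSP70, had a different pattern, at 42.4, 53.7 and 42.2 FPKM with salidroside and at 9.51, 23.6 and 42.1 without it. It varied little across Sal_CP and widely in CP, where replicate 1 was lowest and replicate 3 reached the level of the Sal_CP libraries. The means were 46.1 ± 6.57 and 25.1 ± 16.3 FPKM, a ratio of 1.84. Its log2 change of 1.07 (SE 0.45, 95% interval 0.09 to 2.05) had an unadjusted limma p of 0.0354 and an adjusted p of 0.446. Without CP replicate 1 the log2 change was 0.52, and without CP replicate 3 it was 1.54. The ratio of Hspa1l to Hspa2 ran from 1.03 in CP replicate 3 to 5.81 in CP replicate 1, so the proportion of the testis HSP70 genes to each other was not constant.

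Hspa1a and Hspa1b encode the stress-inducible HSP70. Hspa1a lay at 10.7, 5.32 and 8.90 FPKM with salidroside and at 14.8, 11.0 and 14.0 without it. Hspa1b lay at 10.5, 5.65 and 6.33 FPKM with salidroside and at 14.5, 12.1 and 15.5 without it. For both genes every Sal_CP library was below every CP library, with replicate 1 the highest of Sal_CP. Hspa1a averaged 8.29 ± 2.72 against 13.3 ± 1.98 FPKM, with a log2 change of -0.66 (SE 0.31, limma adjusted p 0.464). Hspa1b averaged 7.49 ± 2.63 against 14.0 ± 1.72 FPKM, with a log2 change of -0.86 (SE 0.30, unadjusted limma p 0.0136, adjusted p 0.421). The transcripts of this pair share long identical stretches. Of the 150-base windows of Hspa1a, the read length used here, 38.1% occurred without mismatch in Hspa1b, so the split of reads between them is uncertain. Their summed level was 21.2, 11.0 and 15.2 FPKM in Sal_CP against 29.3, 23.2 and 29.5 in CP.

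Hspb1, the small heat shock protein known in mice as HSP25, lay at 8.53, 6.61 and 7.18 FPKM with salidroside and at 17.6, 14.7 and 19.5 without it. All Sal_CP libraries were below all CP libraries and each group was tight. The means were 7.44 ± 0.987 and 17.3 ± 2.44 FPKM, 2.32-fold higher in CP. Its log2 change of -1.11 (SE 0.27, 95% interval -1.71 to -0.52) had the smallest p of the members, 0.00156 unadjusted and 0.231 adjusted in limma. In the authors' deposited table Hspb1 has a q of 0.0475, and it is the 1 member that this table calls. Among 150-base windows of the Hspb1 transcript 36.6% occur in the pseudogene Hsp25-ps1, which had 0.086 to 2.22 FPKM.

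The other inducible forms did not share this pattern. Hsp90aa1, the inducible cytosolic HSP90, which male germ cells of the mouse also need in meiosis, lay at 39.6, 38.4 and 38.3 FPKM with salidroside and at 24.3, 33.8 and 44.5 without it. Its groups overlapped and its log2 change of 0.22 (SE 0.32, limma adjusted p 0.721) went to -0.00176 without CP replicate 1. Of its 150-base windows 36.2% also occur in transcripts of other genes, mostly Gm12346 (0.643 to 3.21 FPKM). Dnajb1, the J-domain partner of HSP70 in the stress response, lay at 23.0, 22.6 and 23.1 FPKM with salidroside and at 12.1, 17.9 and 20.6 without it. Dnajb1 was higher in all Sal_CP libraries than in any CP library, the direction opposite to Hspa1a, Hspa1b and Hspb1, with a log2 change of 0.45 (SE 0.30, limma adjusted p 0.525). Hsph1, the inducible HSP110 form, was the scarcest member, at 3.11, 1.44 and 1.63 FPKM with salidroside and at 2.70, 2.84 and 2.36 without it, with overlap (log2 change -0.29, SE 0.26, limma adjusted p 0.587).

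Hspa8, the constitutive HSP70 that serves folding and trafficking in all cells, lay at 74.8, 41.4 and 37.0 FPKM with salidroside and at 58.9, 69.0 and 76.6 without it. Sal_CP replicates 2 and 3 were below all CP libraries and replicate 1 was within their range. Hspa8 itself was highest in CP replicate 3. The sum of the leukocyte markers was highest in Sal_CP replicate 1, at 923 FPKM against 150 to 504 in the other libraries. Lyz2 gave 562 FPKM of it, and Cd74, Cd68, Adgre1, Csf1r and Ptprc also peaked there. Itgam, S100a8 and Cd79a were instead highest in CP replicate 1, and Cd3e in CP replicate 2. The part of leukocytes was not tested. The log2 change was -0.47 (SE 0.35, 95% interval -1.23 to 0.29, limma adjusted p 0.543). Of its 150-base windows 21.9% also occur in transcripts of other genes, mostly Gm15459 (2.20 to 5.48 FPKM). The FPKM ratio of Hspa2 to Hspa8 separated the groups, at 0.567, 1.296 and 1.14 in Sal_CP and 0.161, 0.342 and 0.549 in CP, although the lowest Sal_CP ratio was close to the highest CP ratio.

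No member passed limma at an adjusted p below 0.05. That was 0 of 10, where 9 of 12241 tested genes (0.0735%) passed. At an unadjusted p below 0.05, 2 members were lower in Sal_CP (Hspb1 and Hspa1b), where 6.77% of all tested genes were, and 1 was higher (Hspa2), where 3.96% were. Libraries of the groups did not overlap for 3 members lower in Sal_CP (Hspa1a, Hspa1b and Hspb1), against 10% of all genes, and for 2 higher (Hspa2 and Dnajb1), against 7.21%. For each of these 5 the two-sided exact permutation p was 0.1, the smallest that 3 against 3 libraries allows. Of the 4 members with GAANNTTC in the promoter window, Hspa1a, Hspa1b and Hspb1 were separate and lower, and Hsph1 overlapped. Hspa1a and Hspa1b are not independent cases, since their printed promoters match at 139 of 140 positions, and the match in Hsph1 lies after the start. How often the groups were separate among all genes with GAANNTTC was not computed, so no link to the motif can be read from this. The authors' deposited table calls 1 of 10 members at a q below 0.05, beside 0.605% of the genes above 0 in at least 1 library. Log2 changes were below 0 for 5 of 10 members and for 60.5% of all tested genes, and the medians were -0.04 and -0.12. Rescaling by median of ratios moved the latter to 0.0127 and turned the sign of no member.

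**Figure D2:**
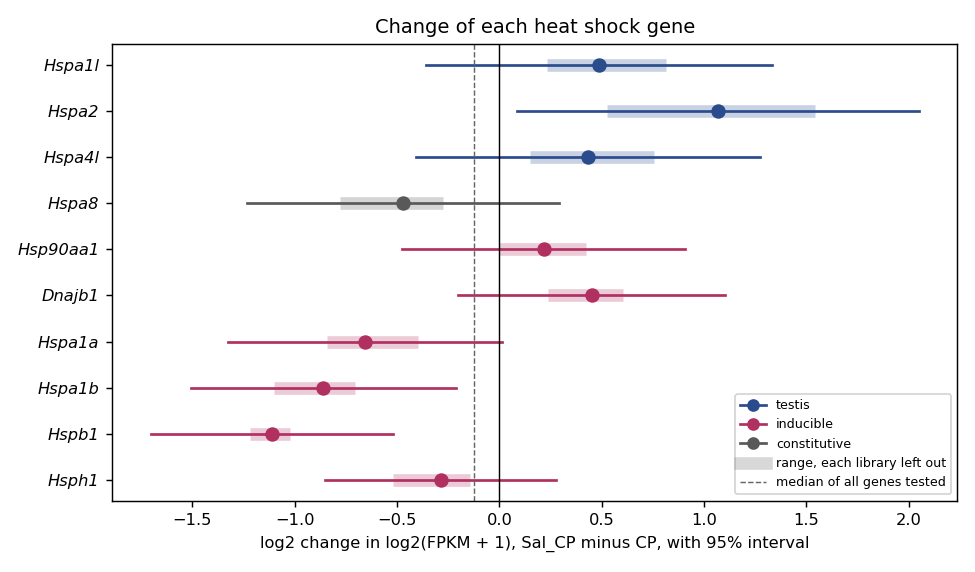
Log2 change of each member, Sal_CP minus CP, with its 95% interval from limma (thin line) and the range when each library is left out in turn (wide band). The 3 testis forms lie between 0.43 and 1.07 and the inducible forms between -1.11 and 0.45, and the dashed line is the median of all tested genes (-0.12).

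The 3 testis forms had log2 changes of 0.43 to 1.07, and 4 of 6 inducible forms lay below 0, a share near the 60.5% of all tested genes below 0. No member of either class passed the test. The mean log2(FPKM + 1) of the testis forms came to 5.70, 5.81 and 6.24 in Sal_CP and to 4.76, 5.73 and 5.26 in CP. The inducible forms averaged 3.71, 3.24 and 3.42 with salidroside and 3.74, 3.76 and 4.0 without it. Testis minus inducible, the difference came to 1.98, 2.57 and 2.82 with salidroside and to 1.03, 1.97 and 1.26 without it. The groups were separate, but by a margin of 1.98 in Sal_CP replicate 1 against 1.97 in CP replicate 2. The mean difference between the groups was 1.04 on the log2 scale, and it stayed between 0.84 and 1.31 when each library was left out. This score was formed with earlier results known and carries no test.

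Within the HSP70 genes alone, Hspa1l and Hspa2 made up 55.6, 69.8 and 76.1% of the summed FPKM of Hspa1a, Hspa1b, Hspa1l, Hspa2 and Hspa8 in Sal_CP. In CP they made up 42.3, 56.8 and 44.6%. The groups overlapped, since CP replicate 2 exceeded Sal_CP replicate 1. The summed HSP70 level itself was 203 ± 25.4 FPKM in Sal_CP and 186 ± 30.5 in CP, a difference smaller than the spread within either group.

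**Figure D3:**
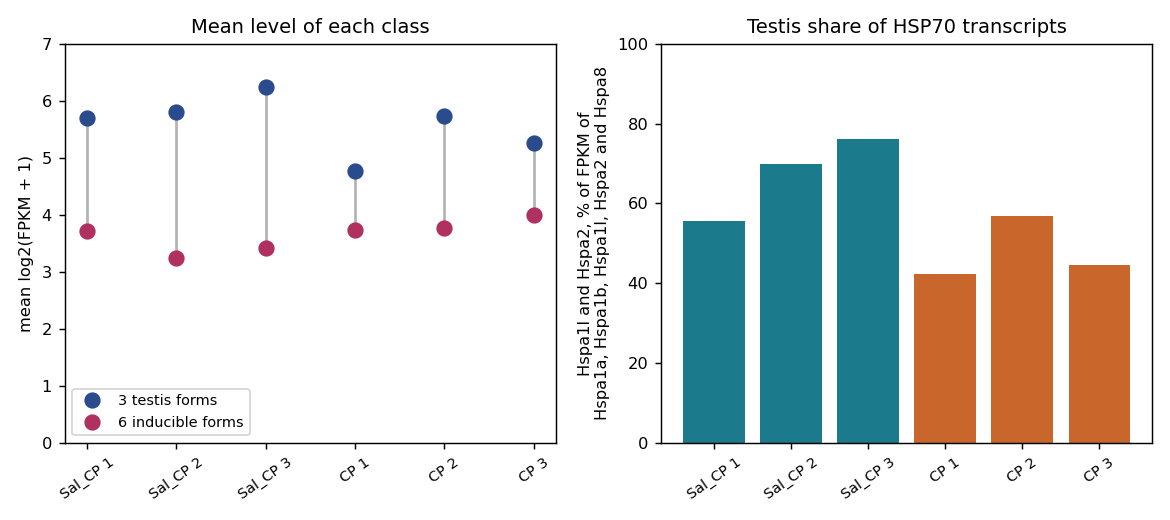
Left, mean log2(FPKM + 1) of the 3 testis and the 6 inducible forms in each library, joined by a line. Right, share of Hspa1l and Hspa2 in the FPKM of 5 HSP70 genes, from 55.6 to 76.1% in Sal_CP and from 42.3 to 56.8% in CP, with 1 bar per library.

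Some members had like profiles across the libraries. Likeness was measured as the root mean square difference between log2(FPKM + 1) profiles, each centred on its own mean over the 6 libraries, so that 0 means identical shape and size. Among members the closest pairs were Hsp90aa1 with Dnajb1 (0.131), Hspa1l with Hspa4l (0.133), Hspa1a with Hspa1b (0.194), Hspa1b with Hspb1 (0.196) and Hsph1 with Hspa8 (0.206). Next came Hspa1b with Hspa8 (0.261), Hspa1a with Hsph1 (0.294) and Hspa1a with Hspb1 (0.2995), so these members did not form separate groups. Hspa2 was at least 0.50 from every other member, with Dnajb1 the nearest, and was farthest from Hspb1 (1.25). Neighbours on the chromosome could be like or unlike. Hspa1a and Hspa1b, both on chromosome 17, had like profiles, but 38.1% of the 150-base windows of Hspa1a also occur in Hspa1b. The part of shared reads in that likeness was not tested. Hspa1a and Hspa1l lie head to head on chromosome 17, with 547 bases between their annotated starts, and differed by 0.777. Of the 150-base windows of Hspa1l 3.62% also occur in Hspa1a.

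Among 10129 other named genes tested, the closest to Hspa2 was Adam2, which encodes the sperm surface protein fertilin beta, at a difference of 0.0215. Adam2 lay at 11.7, 14.4 and 11.6 FPKM with salidroside and at 2.10, 6.24 and 11.5 without it, the same dip in CP replicate 1. Clgn, the germ cell chaperone calmegin of the endoplasmic reticulum, came second at 0.0681. For Hspa4l the closest were Spata7 (0.0344) and Spata19 (0.0362), the latter a protein of sperm mitochondria, and for Hspa1l Prss55 (0.0519), a protease of the testis. Hspb1 was closest to Epcam (0.127) and Cdh1 (0.129), adhesion proteins of epithelia, and Hspa1b to Prss8 (0.0654), an epithelial protease. Hspa1a was closest to Anxa3 (0.099), Hsph1 to Tspan3 (0.0358), Hspa8 to Fkbp2 (0.0431), Hsp90aa1 to the chaperonin subunit Cct7 (0.0547) and Dnajb1 to D7Ertd443e (0.0474). These distances describe the same 6 libraries and carry no test.

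**Figure D4:**
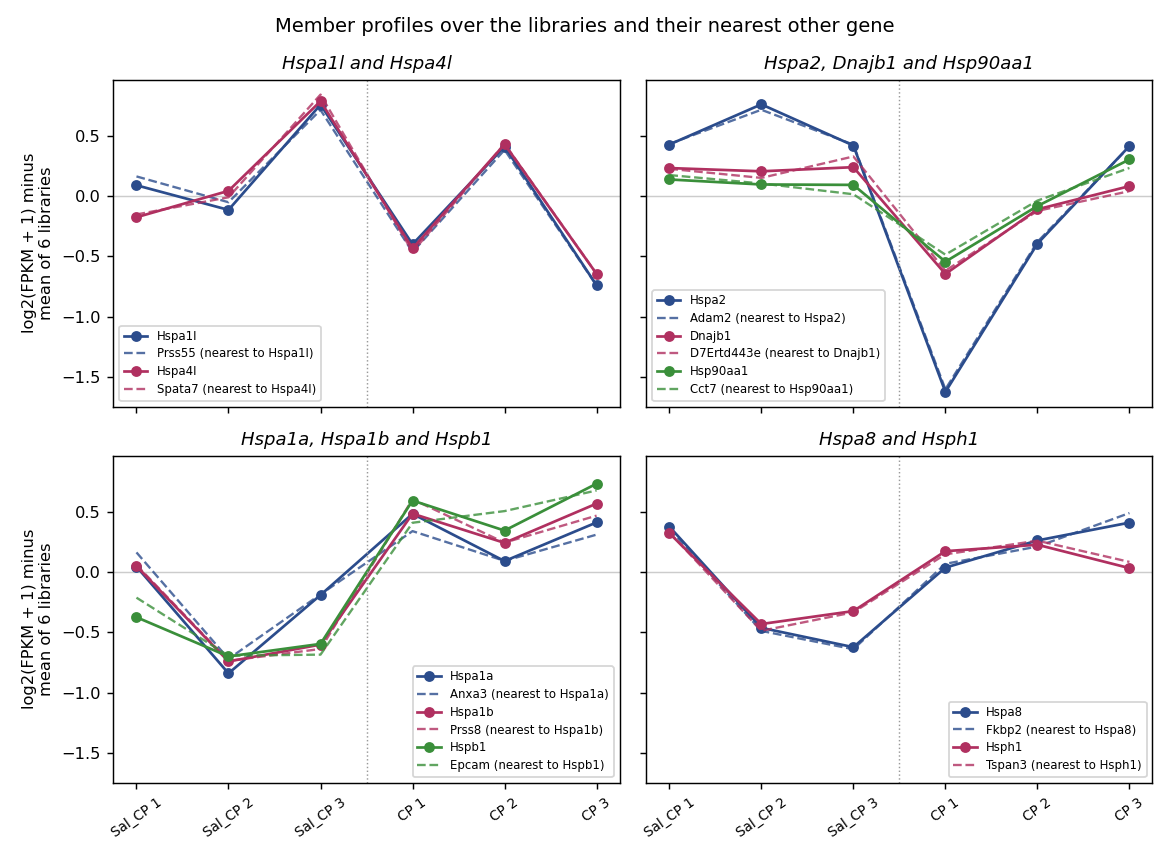
Centred log2(FPKM + 1) of the members (solid lines) and of the nearest other gene to each (dashed lines) over the 6 libraries. Hspa1l and Hspa4l peak in Sal_CP replicate 3 and CP replicate 2, Hspa2 dips in CP replicate 1 together with Adam2, and Hspa1a, Hspa1b and Hspb1 are lower in each Sal_CP library than in each CP library.

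Markers of other cell types were shifted in the same comparison, although none passed limma at an adjusted p below 0.05. Log2 changes were negative for 11 of 12 epithelial junction and keratin genes (median -1.07), and 10 had all Sal_CP libraries below all CP libraries. Cldn3, the most abundant of them, went the other way (0.49, with overlap). All 14 tested spermatid genes had a log2 change above 0 (median 0.50), and so had all 7 tested spermatocyte and meiosis genes (median 0.54). Members were therefore also expressed relative to these lists, a measure chosen after the values had been seen. Relative to the mean of the 12 epithelial genes, on the log2 scale, Hspb1 lay at -0.96, -0.88 and -0.38 in Sal_CP and at -0.55, -0.58 and -0.59 in CP. The groups then overlapped, with a difference of -0.17 (SE 0.181) in place of -1.11. The corresponding differences were 0.29 (SE 0.31) for Hspa1a and 0.08 (SE 0.162) for Hspa1b, both with overlap. Among these epithelial genes are Epcam and Cdh1, the closest to Hspb1 in profile. The smaller difference of Hspb1 therefore restates that likeness and is not a separate result. On the same scale the groups were separate and Sal_CP higher for Hspa8 (0.47) and Hsph1 (0.66), which had lain below 0. The same held for Hsp90aa1 (1.16), Dnajb1 (1.39), Hspa2 (2.01) and Hspa1l (1.43), while Hspa4l (1.38) overlapped. The epithelial mean itself separated the groups, at 4.213, 3.809 and 3.415 in Sal_CP and 4.77, 4.549 and 4.952 in CP. Genes that do not fall with it are thereby shifted upward in Sal_CP. The share of all tested genes that separate on this scale was not computed. In bulk RNA, fewer cells of a type and less RNA per cell cannot be told apart.

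Relative to the 14 spermatid genes, the groups overlapped for all 3 testis forms. Hspa1l lay at -2.37, -2.81 and -2.47 in Sal_CP and at -2.52, -2.16 and -2.86 in CP, a difference of -0.04 (SE 0.241), and Hspa4l differed by -0.09 (SE 0.196). Dnajb1 differed by -0.08 (SE 0.321) on this scale, also with overlap. Hspa2 lay at -3.23, -3.13 and -4.01 in Sal_CP and at -4.94, -4.16 and -2.90 in CP, so its spread over the CP libraries remained. Hspb1 and Hspa1b stayed below CP in every Sal_CP library on the spermatid scale, with differences of -1.64 (SE 0.386) and -1.39 (SE 0.488), whereas Hspa1a overlapped at -1.18 (SE 0.444). Relative to the 7 spermatocyte and meiosis genes, Sal_CP was lower without overlap for Hspb1 (-1.64), Hspa1b (-1.39), Hspa1a (-1.18), Hspa8 (-1.0) and Hsph1 (-0.82). The remaining members overlapped on that scale. The mean of those 7 genes itself separated the groups, at 5.477, 5.69 and 5.873 in Sal_CP and 5.081, 5.329 and 5.045 in CP. Genes that do not rise with it are thereby shifted downward in Sal_CP. The part of cell composition in any of these differences was not tested.

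All members are protein-coding in GENCODE M21, whose GRCm38 coordinates follow. On chromosome 17 lie Hspa1b (34956436 to 34959238), Hspa1a (34969190 to 34972156) and Hspa1l (34972703 to 34979285), within the major histocompatibility complex. Hspa2 spans 76404176 to 76406938 and Hsp90aa1 110690605 to 110702728 on chromosome 12. Hspb1 (135887919 to 135889563) and Hsph1 (149614287 to 149636376) are on chromosome 5. Hspa4l spans 40744495 to 40796103 on chromosome 3, Dnajb1 83608193 to 83612653 on chromosome 8 and Hspa8 40800984 to 40810087 on chromosome 9.

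Other chaperone genes were described in 10 lists, some of which share genes, and no gene of any list passed limma over all genes. Of the heat shock factors, Hsf1 (0.606 to 1.44 FPKM) and Hsf2 (0.549 to 0.861) stayed below the filter. The 2 factors tested are expressed mainly in the testis. Hsf5, which male mice need for meiosis, lay at 9.78, 10.8 and 10.4 FPKM with salidroside and at 3.31, 5.89 and 8.34 without it (log2 change 0.79, limma adjusted p 0.444). Hsfy2 lay at 1.96, 2.42 and 6.16 FPKM against 0.909, 1.79 and 1.12 (0.89, adjusted p 0.438). Both had each Sal_CP value above each CP value, as had 7.21% of all tested genes.

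Among other targets of HSF1, 14 of 18 lay below 0 (median -0.27), against 60.5% of all tested genes. In limma 0 passed and 2 were lower at an unadjusted p below 0.05, against 6.77% of all tested genes. Serpinh1, the collagen chaperone HSP47 of the endoplasmic reticulum, is named after its values were seen, as the gene of smallest p in these lists. It lay at 4.75, 5.09 and 5.07 FPKM with salidroside and at 20.5, 14.3 and 12.5 without it (log2 change -1.46, SE 0.28, limma adjusted p 0.103). Fibroblast and matrix markers lay below 0 in 6 of 6 tested (median -0.87), and their part was not tested. Hspb8, a small heat shock protein that works with BAG3, lay at 15.7, 9.64 and 7.44 against 24.2, 22.4 and 19.3 FPKM (-1.0, limma adjusted p 0.37). The most abundant target, the ubiquitin gene Ubb, had a log2 change of 0.13, and Hsp90ab1, the constitutive HSP90, one of -0.56, both with overlap.

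All 6 J-domain genes of the testis had a log2 change above 0 (median 0.50), led in level by Dnajb8 (354 to 1109 FPKM) and Dnajb3 (101 to 275). Dnajb13, of the sperm axoneme and also named after its values were seen, had 8.76, 8.59 and 7.82 FPKM with salidroside and 3.99, 5.89 and 5.98 without it (0.60, limma adjusted p 0.456). The testis small heat shock protein Hspb9 was more abundant than any member, at 798 to 1695 FPKM, with a log2 change of 0.26. So were the co-chaperones Bag1, a nucleotide exchange factor of HSP70, at 634 to 1370 FPKM (0.47), and Bag5 at 114 to 264 FPKM (0.62). Among chaperonins Cct6b, the testis form of its subunit, was at 51.6, 63.0 and 64.6 FPKM against 48.0, 44.2 and 33.7 (0.51, limma adjusted p 0.503).

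Genes listed as clients or partners of HSPA2 in germ cells were above 0 in 8 of 8 tested, with a median of 0.43. The transition proteins Tnp1 (853 to 2119 FPKM) and Tnp2 (1334 to 3438) were the most abundant of them, and Bag6, a co-chaperone that stabilises HSPA2 in the mouse testis, lay at 28.1 to 61.2 FPKM (0.47). The remaining HSP70 and HSP110 genes were below 0 in 6 of 6 tested (median -0.28), with Hspa5, the HSP70 of the endoplasmic reticulum, at 60.8, 21.7 and 33.1 FPKM against 55.9, 63.7 and 69.4 (-0.81, limma adjusted p 0.464). The remaining HSP90 genes were below 0 in 3 of 3 (median -0.54). Somatic J-domain proteins were below 0 in 7 of 16 (median 0.03), small heat shock proteins in 2 of 5 (0.03), chaperonins in 5 of 11 (0.00) and co-chaperones in 17 of 24 (-0.23).

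**Figure D5:**
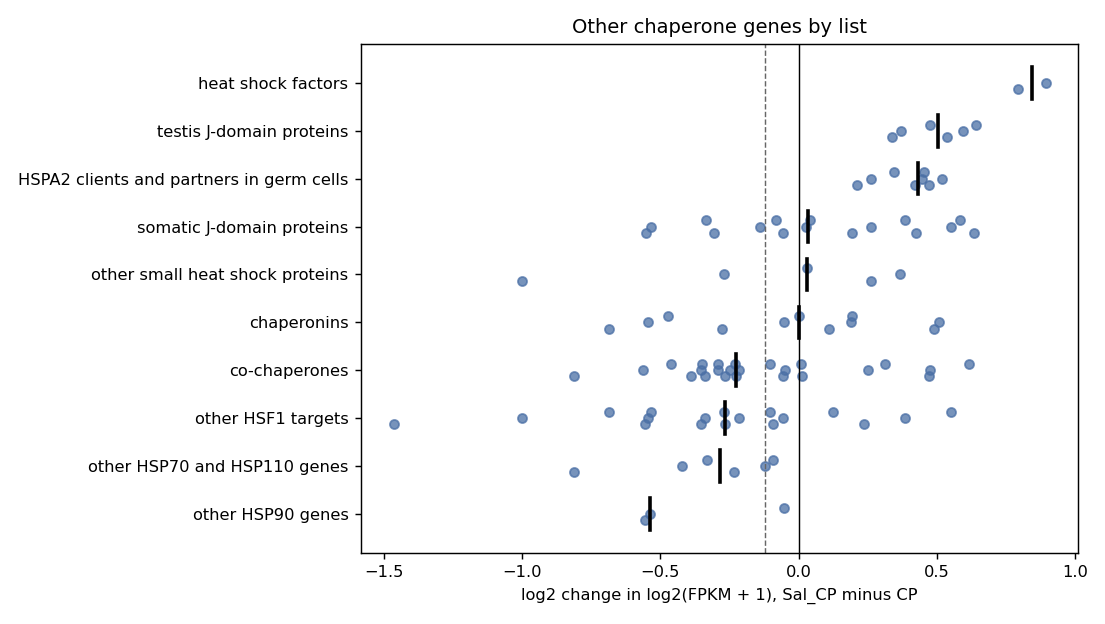
Log2 change, Sal_CP minus CP, of each tested gene in 10 chaperone lists, with list medians as black bars and the median of all tested genes (-0.12) as a dashed line. Testis J-domain proteins, HSPA2 partners and heat shock factors lie wholly above 0, and the remaining HSP90 and HSP70 genes wholly below 0.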

How the data were processed

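The authors deposited FPKM (fragments per kilobase of transcript, scaled to library size) for each library, per the file headers. The build is GRCm38, per the submitters' processing notes. The aligner and quantifier were not given in the sources used here. Per the labels' protocols, the U-labelled strand was removed with UDG and fragments were read as 150-base pairs. The authors' deposited ratio is the ratio of group means of FPKM, its log2 is deposited beside it, and the deposited p-value and q-value come from a test that is not given.

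The 12241 genes averaging 1 FPKM or more were compared as log2(FPKM + 1) with limma (version 3.58.1, R 4.3.3), using an intensity trend for the prior variance and no robust fitting, with 4 residual and 7.76 prior degrees of freedom, and Benjamini-Hochberg adjustment over all tested genes at a threshold of 0.05. This scale understates changes of low genes. The same steps were tested on simulated data. Exact permutation tests were two-sided. Identical 150-base windows were counted in GENCODE M21 transcripts.

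The members and lists were chosen with earlier results of these data known. The rule for named genes took every member, up to 4 genes of highest mean FPKM in each list and the genes of nearest profile, leaving out predicted symbols. Serpinh1, Dnajb13 and the cell type markers named with values fall outside it and were chosen after their values were seen. Alternatives varied the pseudocount, the filter, the scaling, the trend and robust options and the threshold, added the replicate number as a block, and left out each library. Figures were drawn with matplotlib 3.10.9.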

Additional observations from a re-analysis of the deposited data

How the results depend on the processing

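No member passed limma at an adjusted p below 0.05 under any limma alternative run, and the authors' deposited q calls 1 of the 10. At a threshold of 0.1 the count of members was 0 in the main limma fit, with all libraries and no block. Without Sal_CP replicate 1, 5 members lay below it (Hspb1 and Hspa1b at 0.0664, Hsph1 at 0.0795, Hspa1a at 0.0848 and Hspa8 at 0.0864), as did 3141 of all tested genes, against 22 with all libraries. Leaving out single libraries moved Hspa8 between -0.78 and -0.28, Dnajb1 between 0.24 and 0.60, Hspa1a between -0.84 and -0.40 and Hsph1 between -0.52 and -0.14. The log2 changes of 9 members kept their sign in every fit. That of Hsp90aa1 ran from -0.00176 without CP replicate 1 to 0.42 without CP replicate 3, and the cause was not tested. The difference of testis minus inducible forms stayed between 0.84 and 1.31 over all alternatives run. Over all genes, limma called 9, and called 0 with no filter, 0 after median of ratios rescaling, 5 after quantile normalization, 22 at a threshold of 0.1 and between 0 and 13 when a library was left out (0 without Sal_CP replicate 1 and 1 without Sal_CP replicate 2). With the replicate block it called 280, and the adjusted p of Hspb1 was 0.0953. Deviations of same-numbered libraries from their group means correlated at r = 0.196, -0.115 and -0.0644, within the range of differently numbered ones (-0.207 to 0.296). With 3 libraries per group these values cannot settle whether same-numbered samples are paired. Hsph1 could not be fitted at a mean of at least 5 FPKM. Depth is unknown, so counting error has no estimate.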
